A study of Arabidopsis thaliana with 27 samples.

Results

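The 12 Arabidopsis leaf libraries collected 24 h after treatment, of 27 libraries in the series, were compared by replicate number: the 6 labelled replicate 1 or 2 (W, Pb OS and Sl OS, 2 each) against the 6 labelled replicate 3 or 4 (the same treatments, 2 each). All libraries came from wild-type Col-0 plants about 5 weeks old, grown under 10 h of light and 14 h of darkness. In treated plants 3 leaves were each pierced with 4 holes of 1 mm, and 2 µl of water (W), of oral secretions (OS) of *Pieris brassicae* (Pb OS) or of OS of *Spodoptera littoralis* (Sl OS) was put on each hole. The replicate number names a plant batch, so the 3 treatments of 1 number shared a batch. Batches 1 and 2, and batches 3 and 4, overlapped in their growth period. The test over 6 against 6 libraries treats the libraries of 1 batch as separate samples, and a test on the batch means (2 against 2) is given for the counts it changes by more than 1.5 times and for genes described here whose call it ends. The hour of treatment or collection is not given in the sources used here, so hour of day and plant batch cannot be told apart in this comparison. Libraries taken early in the series, namely unwounded control leaves (CTRL), Pb OS at 3 h and Sl OS at 3 h, with 4 replicates each, were compared in the same way. The W libraries at 3 h were left out because their replicate numbers differ between sources.

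The plant circadian clock is a network of transcription factors that repress each other in turn through the day. CCA1 and LHY, a pair of MYB factors, peak at dawn and bind the evening element in the promoters of evening genes, which they repress. The pseudo-response regulators PRR9, PRR7, PRR5, PRR3 and TOC1 follow one after another from morning to dusk and repress the dawn genes. GI, FKF1 and the evening complex of ELF3, ELF4 and LUX act from the afternoon into the night. The clock sets the daily rhythm of genes for photosynthesis, starch metabolism, cold acclimation and growth.

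The libraries at 24 h held 27636578 to 30722635 counted reads in replicates 1-2 and 27744433 to 31335753 in replicates 3-4. The scaling factors recovered from the table were 0.884 to 0.933 in replicates 1-2 and 0.99 to 1.068 in replicates 3-4 and did not overlap. With library totals in place of these factors the median gene shifted by -0.18 on the log2 scale, and changes below are relative to the recovered scaling. The deposited values are log2 CPM, read counts scaled to a common library size, from which a per-gene shift between replicates 1-2 and 3-4 had been removed over all 27 libraries. The methods describe a correction by replicate number with 4 batches, but the values hold a shift between these pairs only. Whole reads were recovered from them for all 18899 genes, and values called uncorrected here are CPM, or log2 CPM, rebuilt from these reads without that shift. Levels are given as uncorrected CPM. Differences are replicates 1-2 minus replicates 3-4 on the log2 scale, with their SE.

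Replicates 1-2 and 3-4 differed at 24 h over a large share of the transcriptome. In the deposited values 2760 genes (14.6% of 18899) were higher and 2798 (14.8%) lower in replicates 1-2 at an adjusted p under 0.05 (limma, treatment as a block), of which 697 (3.69%) and 718 (3.8%) had a log2 difference over 1. On the batch means these counts were 1089 higher and 1079 lower. In uncorrected values 4578 genes (24.2%) were higher and 4583 (24.2%) lower, with 1248 (6.6%) and 1565 (8.28%) beyond a log2 difference of 1. On the batch means they were 2808 higher and 2742 lower. With library totals for scaling, uncorrected values gave 3055 genes higher and 6827 lower, so that 30.9% of the genes called were higher. For 5166 genes (27.3%) the 6 libraries of replicates 1-2 did not overlap the 6 of replicates 3-4 in uncorrected CPM. The Euclidean distance over all genes in uncorrected log2 CPM averaged 154.0 between libraries of different pairs (146.3 to 172.6) and 89.9 between libraries of the same pair (64.7 to 113.0). The first principal component of the 12 libraries held 55.3% of the variance and placed replicates 1-2 between 59.7 and 75.1 and replicates 3-4 between -70.4 and -60.0.

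Among 31 clock genes, 26 were called at 24 h in uncorrected values and the same number in deposited values (13 higher and 13 lower in each), against 48.5% and 29.4% of all genes, and for 25 of the 31 the libraries of the pairs did not overlap, against 27.3% of all genes. On the batch means 27 were called in uncorrected values and 25 in deposited values, where RVE5 was lost (adjusted p = 0.097), while CHE was gained in uncorrected values (0.43, adjusted p = 0.0461). Leaving out any 1 library left 26 in deposited values and 26 to 27 in uncorrected values. The median size of the clock gene differences was 4.26 in uncorrected values and 2.94 in deposited values, against 0.35 and 0.23 over all genes.

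**Figure D1:**
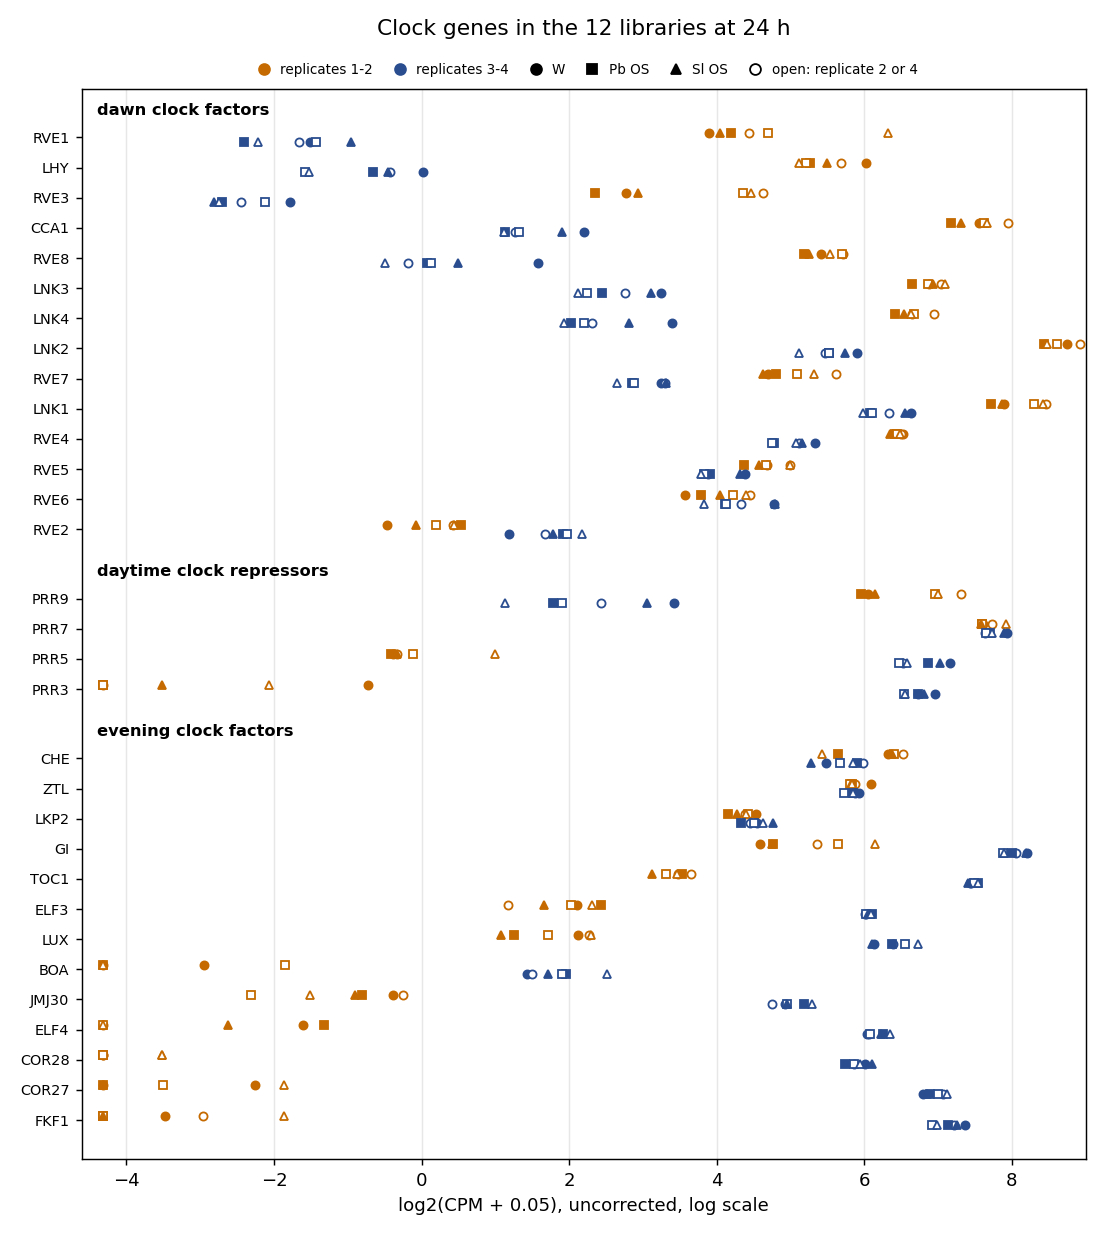
Clock genes in the 12 libraries at 24 h, each point 1 library, as log2(CPM + 0.05) of uncorrected values on the horizontal axis and genes down the page, sorted within each list by their difference. CCA1 sits at 144.3 to 246.9 CPM in replicates 1-2 and 2.11 to 4.54 CPM in replicates 3-4, and FKF1 at 0 to 0.225 CPM and 121.4 to 164.4 CPM, while PRR7, ZTL and LKP2 overlap.

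Dawn factors were higher in replicates 1-2. Of 14 listed, 12 were higher and 1 lower in both value sets, 11 of them higher by a log2 difference over 1, with a median difference of 3.63 in uncorrected values and 2.51 in deposited values. CCA1 had 144.3, 192.2 and 246.9 CPM (lowest, median and highest) in replicates 1-2, against 2.11, 2.41 and 4.54 CPM in replicates 3-4, a difference of 6.06 ± 0.18 (adjusted p = 2.99e-10) and of 4.34 ± 0.18 in deposited values. LHY had 34.6, 41.7 and 65.2 CPM in replicates 1-2 and 0.286, 0.634 and 0.962 CPM in replicates 3-4 (6.28 ± 0.22). Every library of replicates 1-2 was above every library of replicates 3-4 for both genes.

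RVE8, a CCA1 relative that activates evening genes, followed with 36.2 to 52.3 CPM in replicates 1-2 and 0.659 to 2.94 CPM in replicates 3-4 (5.22 ± 0.28). RVE4, its close relative, differed less, with 81.8 to 92.4 CPM and 26.8 to 40.3 CPM (1.42 ± 0.07). RVE1, which links the clock to auxin synthesis, had 14.9 to 79.8 CPM in replicates 1-2, where the highest value was Sl OS replicate 2, and 0.138 to 0.464 CPM in replicates 3-4. RVE3 stood at 5.06 to 24.7 CPM in replicates 1-2 and 0.0929 to 0.24 CPM in replicates 3-4. RVE7 (24.8 to 48.9 CPM, against 6.23 to 9.91 CPM) and RVE5 (20.6 to 31.7 CPM, against 13.8 to 20.9 CPM) were also higher, although the RVE5 ranges touched. RVE2 was the 1 member lower in replicates 1-2, at 0.676 to 1.4 CPM against 2.22 to 4.48 CPM. RVE6 did not pass the test, at 11.8 to 21.9 CPM and 14.1 to 27.7 CPM (-0.25 ± 0.20, adjusted p = 0.327).

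The LNK genes encode coactivators that work with RVE8. LNK1 had 209.8 to 352.7 CPM in replicates 1-2 and 63.0 to 99.2 CPM in replicates 3-4, and LNK2 346.9 to 487.0 CPM and 34.8 to 59.9 CPM. LNK3 (100.0 to 136.6 CPM, against 4.28 to 9.4 CPM) and LNK4 (85.3 to 122.9 CPM, against 3.76 to 10.5 CPM) differed by 4.26 and 4.2. All 4 were higher in each library of replicates 1-2 than in any of replicates 3-4.

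Promoters of 3 genes that were high in replicates 1-2 are shown because each held the G-box CACGTG, a site of light-responsive factors, within the 250 bases before the annotated start (RefSeq, TAIR10.1). It is in capitals, and the same letters are read on both strands. Of the dawn factors 7 of 14 held it, against 7.53% of all promoters. RVE8, RVE4, RVE7, LNK1, LNK2 and LNK4, also high in replicates 1-2, held no copy in this stretch. RVE2, LUX, BOA and AT2G38465, which were low in replicates 1-2, held 1 copy each, as did PRR7.
CCA1 (AT2G46830, chr2:19245341-19245590, plus strand): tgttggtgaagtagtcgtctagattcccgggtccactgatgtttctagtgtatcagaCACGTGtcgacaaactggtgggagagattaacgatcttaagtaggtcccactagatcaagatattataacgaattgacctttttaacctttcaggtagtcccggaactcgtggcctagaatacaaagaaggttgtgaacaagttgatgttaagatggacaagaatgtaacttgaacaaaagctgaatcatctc
LHY (AT1G01060, chr1:37872-38121, minus strand): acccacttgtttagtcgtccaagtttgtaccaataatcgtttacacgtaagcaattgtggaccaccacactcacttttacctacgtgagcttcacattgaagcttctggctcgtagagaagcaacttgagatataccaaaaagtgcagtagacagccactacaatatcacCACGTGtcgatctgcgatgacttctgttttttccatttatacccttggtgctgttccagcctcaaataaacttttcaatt
PRR9 (AT2G46790, chr2:19232357-19232606, plus strand): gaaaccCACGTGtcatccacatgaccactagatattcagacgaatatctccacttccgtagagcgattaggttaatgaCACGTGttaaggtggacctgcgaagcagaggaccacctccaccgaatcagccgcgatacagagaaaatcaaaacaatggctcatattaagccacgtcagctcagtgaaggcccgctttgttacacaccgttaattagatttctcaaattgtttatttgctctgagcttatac

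The daytime repressors fell on both sides. PRR9, the earliest of them in the day, had 61.8, 97.8 and 158.8 CPM in replicates 1-2, against 2.14, 4.52 and 10.7 CPM in replicates 3-4 (4.29 ± 0.36, adjusted p = 1.62e-06). PRR7, the next, had 191.4, 193.9 and 243.5 CPM in replicates 1-2 and 198.6, 211.0 and 244.6 CPM in replicates 3-4, and its difference of -0.09 ± 0.07 did not pass the test (adjusted p = 0.359). PRR5 had 0.698, 0.747 and 1.95 CPM in replicates 1-2, against 89.0, 105.8 and 143.6 CPM in replicates 3-4 (-6.89 ± 0.23, adjusted p = 6.96e-10). PRR3 had at most 14 reads in a library of replicates 1-2 and 0 in 3 of them, against 2616 to 4130 reads in replicates 3-4, or 93.4 to 124.1 CPM. With library totals for scaling PRR7 was called lower in replicates 1-2 (-0.25, adjusted p = 0.0235). The first repressor of the day was thus higher in replicates 1-2 and the later PRR5 and PRR3 were lower. The difference of PRR7 was the smallest in size of these repressors.

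Evening factors were lower in replicates 1-2. Of 13 listed, 10 were lower and 0 higher in both value sets, all 10 by a log2 difference over 1, with a median of -4.6 in uncorrected and -3.0 in deposited values. TOC1, the last regulator of the series, had 8.67, 11.1 and 12.5 CPM in replicates 1-2, against 169.3, 176.8 and 186.5 CPM in replicates 3-4 (-4.05 ± 0.08, adjusted p = 1.39e-11). Its values within each pair lay close together. GI, which stabilises the F-box protein ZTL and acts with FKF1 in flowering, had 23.9 to 70.5 CPM in replicates 1-2 and 234.7 to 295.2 CPM in replicates 3-4 (-2.83 ± 0.24).

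All 3 genes of the evening complex were lower in replicates 1-2. ELF3 had 2.2 to 5.37 CPM against 64.3 to 68.9 CPM, and LUX had 2.06 to 4.88 CPM against 68.7 to 106.5 CPM. ELF4 had no read in the 3 libraries of replicate 2 and 3 to 10 reads in those of replicate 1, against 1887 to 2481 reads (65.7 to 81.8 CPM) in replicates 3-4. BOA, a close relative of LUX, had 0 to 0.228 CPM and 2.64 to 5.67 CPM.

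FKF1, the blue-light F-box protein that degrades repressors of flowering, had 0 to 6 reads per library in replicates 1-2 and 3398 to 5470 reads in replicates 3-4 (121.4 to 164.4 CPM). COR27 and COR28, cold-regulated genes that also repress clock genes, were at or near 0 in replicates 1-2. COR27 had 0 to 6 reads there against 111.0 to 138.9 CPM in replicates 3-4. COR28 had 2 reads in all 6 libraries of replicates 1-2 and 11155 in those of replicates 3-4, a ratio of 4842 with a 95% counting interval of 1340 to 40000 in favour of replicates 3-4 (exact binomial, which covers counting error only). JMJ30, a histone demethylase tied to the clock, had 0.152 to 0.787 CPM and 26.8 to 39.2 CPM. Fitted log2 differences of genes this close to 0 depend on the prior count of 1 in the values and are not bounds.

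The 3 evening-list genes that did not pass the test were ZTL (55.9 to 68.4 CPM, against 52.7 to 61.1 CPM, adjusted p = 0.782), LKP2 (17.8 to 23.1 CPM, against 20.1 to 27.2 CPM, adjusted p = 0.0933) and CHE (43.1 to 92.5 CPM, against 38.6 to 63.5 CPM, adjusted p = 0.0838). With library totals for scaling LKP2 was called lower (-0.34, adjusted p = 0.00508). ZTL is known for a transcript level with little daily rhythm.

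Promoters of 4 genes that were low in replicates 1-2 are shown because they held the evening element AAAATATCT, in capitals on either strand (250 bases before the annotated start, RefSeq, TAIR10.1).
TOC1 (AT5G61380, chr5:24674713-24674962, plus strand): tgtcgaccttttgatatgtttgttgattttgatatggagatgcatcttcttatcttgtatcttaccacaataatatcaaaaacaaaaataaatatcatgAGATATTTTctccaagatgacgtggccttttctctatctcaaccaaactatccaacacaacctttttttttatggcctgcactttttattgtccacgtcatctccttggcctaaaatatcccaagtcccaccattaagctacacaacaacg
PRR5 (AT5G24470, chr5:8358547-8358796, minus strand): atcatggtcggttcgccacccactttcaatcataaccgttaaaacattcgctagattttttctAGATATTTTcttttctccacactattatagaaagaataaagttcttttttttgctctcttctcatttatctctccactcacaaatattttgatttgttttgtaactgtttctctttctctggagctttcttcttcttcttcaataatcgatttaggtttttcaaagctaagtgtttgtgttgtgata
FKF1 (AT1G68050, chr1:25508389-25508638, plus strand): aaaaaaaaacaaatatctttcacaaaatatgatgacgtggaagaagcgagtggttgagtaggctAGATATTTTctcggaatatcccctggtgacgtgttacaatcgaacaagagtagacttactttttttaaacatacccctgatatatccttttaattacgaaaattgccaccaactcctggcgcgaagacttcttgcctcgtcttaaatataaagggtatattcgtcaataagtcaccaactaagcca
GRP7 (AT2G21660, chr2:9266558-9266807, minus strand): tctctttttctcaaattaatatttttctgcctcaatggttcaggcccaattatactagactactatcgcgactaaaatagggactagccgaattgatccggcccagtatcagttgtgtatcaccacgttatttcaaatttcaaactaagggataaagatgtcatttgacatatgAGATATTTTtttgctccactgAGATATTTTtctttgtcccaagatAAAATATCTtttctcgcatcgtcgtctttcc
The near end of the element was 143 bases before the start in TOC1, 179 in PRR5 and 178 in FKF1. GRP7, an RNA-binding protein of a clock-coupled feedback loop, had 3 copies, the nearest 23 bases before the start. LUX and BOA held 1 copy each. Other genes low in replicates 1-2, namely GI, ELF3, ELF4, JMJ30, COR28 and PRR3, held no copy in this stretch. COL2 and RVE7, which were high in replicates 1-2, held 1 copy each.

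Over the 18833 genes with a promoter read from the reference, 2.56% held AAAATATCT in the 250 bases before the start, on either strand. Among genes lower in replicates 1-2 by a log2 difference over 1 the share was 8.88% (139 of 1565), and among those lower by over 3 it was 20.4% (40 of 196). Among genes higher by over 1 it was 2.25% (28 of 1245), and among those higher by over 3 it was 1.49% (2 of 134). The CCA1-binding site AAAAATCT, which neither contains nor is contained in the evening element, was in 6.89% of all promoters, 8.63% of those lower and 6.51% of those higher by over 1. The G-box CACGTG was in 7.53% of all promoters, in 8.12% of those lower and 11.8% of those higher by over 1, and in 14.3% and 18.7% of those lower and higher by over 3. The letters CACATG were in 11.1% of all promoters, 13.2% of those lower and 13.3% of those higher by over 1. A match is a run of letters and not a shown binding site, and these shares were not tested.

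The 10 genes highest in replicates 1-2 by the deposited difference were BBX31, BBX30, AT3G09450, AT2G15020, COL2, RVE3, CCA1, RVE1, AT5G66740 and GBSS1. BBX31 had 6.91 to 45.7 CPM in replicates 1-2 and 0 to 0.155 CPM in replicates 3-4, and BBX30, the closely related small B-box protein, 16.4 to 47.3 CPM and 0 to 0.751 CPM. AT3G09450 had 160 to 408 reads per library in replicates 1-2 and 3 reads over the 6 libraries of replicates 3-4, a ratio of 581.4 (95% counting interval 199 to 2820). AT2G15020 stood at 183.6 to 273.5 CPM and 0.822 to 7.27 CPM, and AT5G66740 at a median of 13.2 CPM and 0.27 CPM. COL2, a relative of the flowering regulator CO, had 93.1 to 127.5 CPM and 0.494 to 0.931 CPM (7.07 ± 0.15). GBSS1, the starch synthase that makes amylose, had a median of 230.4 CPM and 5.9 CPM (5.07 ± 0.20).

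The 10 genes lowest in replicates 1-2 were COR27, COR28, PRR3, FKF1, ELF4, AT1G17665, DRMH1, AT2G38465, COL9 and GRP7. AT1G17665 and AT2G38465 had no read in any library of replicates 1-2, against 22.2 to 29.8 CPM and 11.6 to 18.9 CPM in replicates 3-4. Against a floor of 3 reads over the 6 libraries, AT1G17665 was at least 1330-fold and AT2G38465 at least 791-fold lower in replicates 1-2. DRMH1, a dormancy-associated gene, had 0.949 to 3.34 CPM in replicates 1-2 and 679.1 to 993.1 CPM in replicates 3-4 (-8.85 ± 0.22). GRP7 averaged 8.19 ± 1.94 CPM in replicates 1-2 and 2808.0 ± 224.3 CPM in replicates 3-4 (SD, n = 6 each), a difference of -8.45 ± 0.14 (limma adjusted p = 7.97e-12). Its paralogue GRP8 differed in the same direction, at 41.2 to 67.3 CPM and 288.3 to 403.8 CPM.

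B-box factors, zinc-finger proteins that relay light and clock signals, were called in full. Of 14, 12 were higher and 2 lower in replicates 1-2 in both value sets, and none overlapped between the pairs, where 24.2% of all genes were called in each direction in uncorrected values and 27.3% did not overlap. BBX16 had 114.5 to 162.3 CPM against 8.17 to 15.6 CPM, BBX25 81.3 to 101.1 CPM against 2.1 to 5.71 CPM, and COL1 90.5 to 142.9 CPM against 4.68 to 9.88 CPM. COL9, which delays flowering, was lower in replicates 1-2, at 0.112 to 0.795 CPM against 69.0 to 110.6 CPM. BBX14 was the other lower member, with 37.4 to 215.7 CPM and 317.3 to 543.7 CPM, and its call in deposited values was lost on the batch means (adjusted p = 0.195).

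Clock outputs in flowering and growth were mixed, with 8 of 16 higher and 5 lower in replicates 1-2 in uncorrected values (8 and 3 on the batch means), against 24.2% of all genes each way, and 8 and 3 in deposited values, against 14.6% and 14.8%. CAT2, the main leaf catalase, had 1844.7 to 2412.2 CPM in replicates 1-2 and 121.8 to 200.1 CPM in replicates 3-4. CAT3, a catalase that peaks in the evening, had 1493.1 to 2621.0 CPM and 5014.0 to 7336.3 CPM. CDF1, a repressor of CO, had 51.9 to 78.8 CPM and 6.1 to 12.3 CPM, and ATHB2, a shade and growth factor, had 87.5 to 154.0 CPM and 10.5 to 16.0 CPM.

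Light-harvesting proteins of the photosystem antennae were higher in 14 of 20 cases and lower in 0, against 24.2% of all genes each way, with a median of 0.53. LHCB2.1 had 4409.7 to 6116.9 CPM in replicates 1-2 and 1645.4 to 2318.1 CPM in replicates 3-4 (1.4 on the log2 scale). The near-identical LHCB1 copies can share reads, so LHCB1.1 (1.51 ± 0.22) and LHCB1.3 (-0.07 ± 0.20, adjusted p = 0.794) are uncertain one by one. On the batch means 6 of the 20 were called in uncorrected and 4 in deposited values, where LHCB1.1 was not called (adjusted p = 0.0663). In chlorophyll synthesis 9 of 13 were higher and 1 lower, against the same 24.2% each way (5 and 1 on the batch means of deposited values). HEMA1, the first committed step, had 965.6 to 1244.8 CPM and 72.6 to 153.6 CPM (3.42 ± 0.16). GUN4, an activator of magnesium chelatase, had 257.4 to 320.1 CPM and 52.5 to 70.1 CPM. PORB, a light-dependent reductase of the last steps, was the lower member, at 375.7 to 510.4 CPM and 1077.8 to 1756.4 CPM.

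The 5 mesophyll markers, all photosynthesis genes, moved with these groups. Each of the 5 was called higher in replicates 1-2 in both value sets, against 24.2% of all genes in uncorrected and 14.6% in deposited values. On the batch means 3 were called in uncorrected values and 0 in deposited values. The summed level of the 5 was 40820.3 to 48697.2 CPM in replicates 1-2 and 15965.7 to 24226.8 CPM in replicates 3-4. RCA, Rubisco activase, a gene with a daily rhythm of its own, had 16931.5 to 19167.2 CPM and 5390.7 to 6806.7 CPM (1.58 ± 0.14), and on the batch means of the deposited values it was not called (adjusted p = 0.101). Fewer cells of a type and less RNA per cell cannot be told apart in bulk leaves, and the part of cell makeup in the photosynthesis results was not tested. Of the epidermis, guard cell and vascular markers (4 each), 2 were higher, 2 lower and 2 higher in uncorrected values, with medians of 0.20, -0.39 and 0.49. These counts are near the 48.5% of all genes called. On the batch means 0 epidermis markers, 2 guard cell markers and 1 vascular marker were called, where 2808 of all 18899 genes were higher and 2742 lower. Their summed levels overlapped between replicates 1-2 and 3-4 in all 3 lists, at 538.8 to 646.8 and 386.2 to 584.3 CPM for epidermis, 28.0 to 38.5 and 35.3 to 80.0 CPM for guard cells, and 323.1 to 452.9 and 275.1 to 439.1 CPM for vascular tissue. No defining marker of these lists was at 0. Among 7 genes often used as references, GAPC1 (596.5 to 733.6 CPM, against 307.4 to 367.4 CPM) and EF1A were higher, and the other 5, such as PP2AA3 (53.0 to 64.1 CPM, against 54.1 to 58.4 CPM), did not pass the test. Over all genes 24.2% were called higher and 24.2% lower, and the share of the 7 that was higher is near that. EF1A was not called on the batch means (adjusted p = 0.0828). With library totals for scaling 2 of the 7 were higher and 3 lower, where 3055 and 6827 of all 18899 genes were.

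Light receptors and their signalling genes were higher in 14 of 24 cases and lower in 5, against 24.2% of all genes each way (10 and 3 on the batch means). In deposited values 11 were higher and 3 lower, against 14.6% and 14.8% of all genes (6 and 3 on the batch means). The lower share is near that of all genes in both value sets. HYH, a partner of HY5, had 11.6 to 38.3 CPM in replicates 1-2 and 0.494 to 0.867 CPM in replicates 3-4. ELIP1, an early light-induced protein, had 1.57 to 5.39 CPM and 0.0331 to 0.357 CPM. ELIP2 had 60 reads over replicates 1-2 and 0 over replicates 3-4, at least 23.0-fold higher against a floor of 3 reads over the pair, and its deposited call was lost on the batch means (adjusted p = 0.0533). CRY2, a blue-light receptor, was lower at 89.1 to 123.1 CPM against 253.0 to 313.4 CPM (-1.41 ± 0.07). RUP2, which switches off UV-B signalling, had 8.03 to 19.1 CPM and 1.03 to 1.59 CPM, and SPA1, a partner of the light repressor COP1, had 219.2 to 297.1 CPM and 98.9 to 136.4 CPM.

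**Figure D2:**
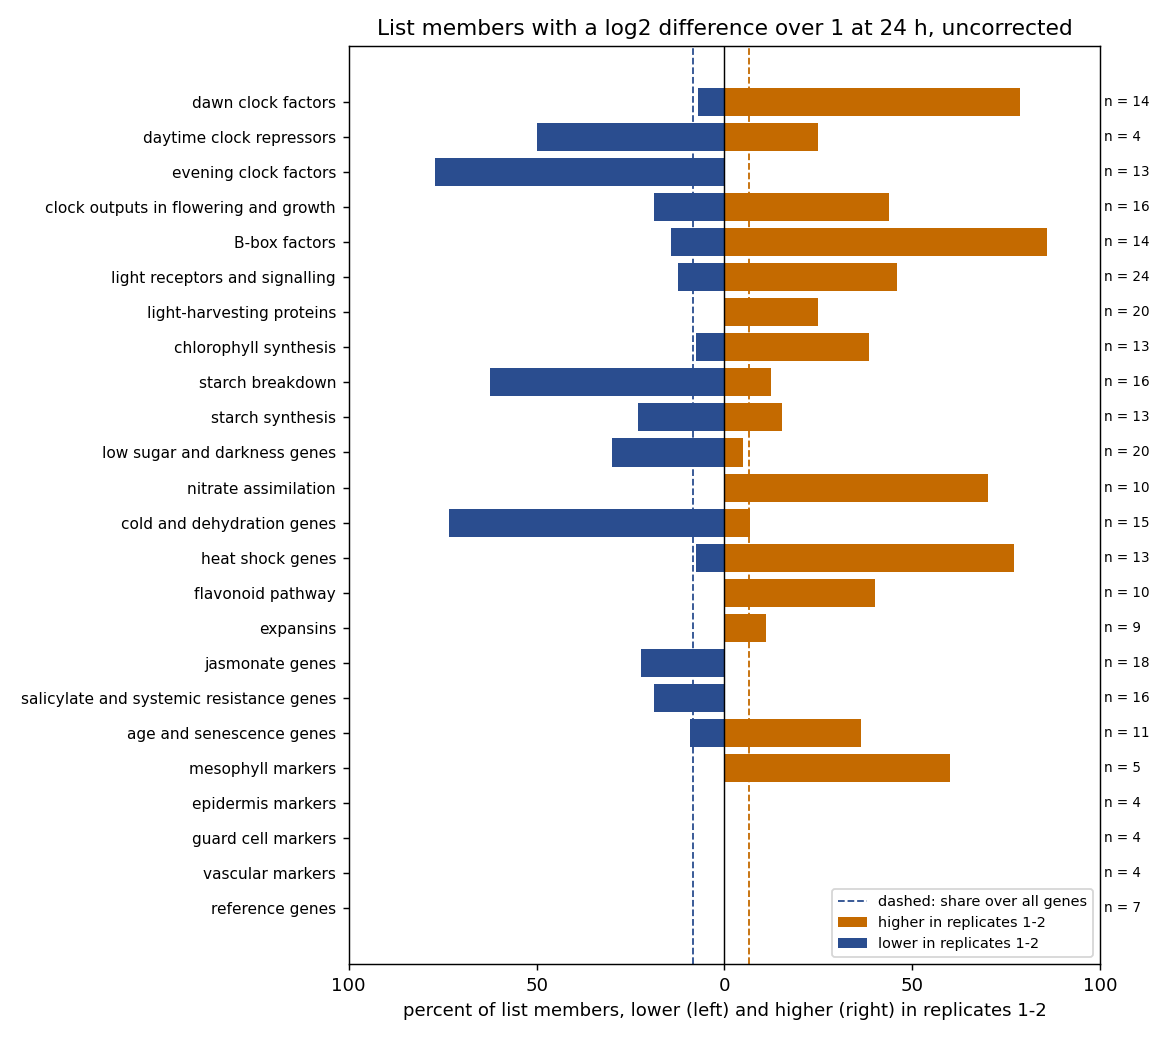
Percent of the members of each gene list higher (right) or lower (left) in replicates 1-2 at 24 h with an adjusted p under 0.05 and a log2 difference over 1, uncorrected values, with the number of members at the right edge and the share over all genes (6.6% higher and 8.28% lower) as dashed lines. Dawn clock factors, B-box factors and heat shock genes extend to the right, evening clock factors, starch breakdown and cold genes to the left, and the epidermis, guard cell, vascular and reference lists have no bar.

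Of the lists described here, 2 clock output, 1 nitrate, 3 heat shock, 5 flavonoid, 2 age and 1 epidermis gene were not analysed here, and the counts are over the other members. Genes of starch breakdown, which in leaves takes place at night, were lower in replicates 1-2 in 12 of 16 cases and higher in 2, against 24.2% of all genes each way, with a median of -1.20. In deposited values 11 were lower and 3 higher, against 14.8% and 14.6% of all genes (9 and 1 on the batch means). PWD, a kinase that prepares starch granules for breakdown, had 26.8, 31.1 and 39.0 CPM in replicates 1-2, against 578.6, 613.3 and 665.9 CPM in replicates 3-4 (-4.30 ± 0.06, adjusted p = 4.48e-12). GWD1, the partner kinase, had 278.4 to 386.7 CPM and 2010.0 to 2721.0 CPM. The debranching enzyme ISA3 (29.7 to 41.7 CPM, against 294.1 to 373.2 CPM) and the transferase DPE1 (19.1 to 27.7 CPM, against 125.2 to 144.9 CPM) were lower too. The 2 higher members were BAM1 and BAM9, a beta-amylase and a family member without known amylase activity, with BAM9 at 22.2 to 103.7 CPM and 1.68 to 6.43 CPM (not called on the batch means of deposited values, adjusted p = 0.0829). Starch synthesis was mixed, with 7 of 13 higher and 3 lower, against 24.2% of all genes each way, and the lower share is near that. On the batch means of deposited values 4 were higher and 3 lower. With library totals for scaling 6 were higher and 5 lower, with a median of -0.02 in place of 0.14. SBE2.1, a branching enzyme, had 43.8 to 62.7 CPM and 414.8 to 597.4 CPM, opposite to GBSS1 above. The synthase SS2 was higher, at 96.0 to 114.8 CPM against 36.4 to 49.9 CPM, and SS4 lower, at 89.7 to 110.8 CPM against 276.4 to 314.0 CPM.

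Genes induced by low sugar or darkness were lower in 10 of 20 cases and higher in 2, against 24.2% of all genes each way (8 and 1 on the batch means). In deposited values they were lower in 6 and higher in 2 (3 and 1 on the batch means), where 29.4% of all genes were called. DRM1, another dormancy-associated gene, had 1.16 to 3.14 CPM in replicates 1-2 and 73.5 to 129.8 CPM in replicates 3-4 (-5.56 ± 0.28). DIN10, a raffinose synthase, had 14.3 to 46.3 CPM and 53.0 to 176.3 CPM. DIN4, an enzyme of branched-chain amino acid breakdown, had 4.85 to 10.0 CPM and 13.5 to 21.8 CPM, and DIN9 was one of the higher members at 2.62 to 7.28 CPM and 1.29 to 2.17 CPM, though not on the batch means of deposited values (adjusted p = 0.0987). Nitrate assimilation was higher in all 10 members measured in uncorrected values, where 24.2% of all genes were higher. In deposited values 7 were higher and 0 lower, where 14.6% of all genes were higher. The nitrate reductases NIA1 (76.5 to 215.9 CPM, against 10.2 to 26.2 CPM) and NIA2 (1097.5 to 2262.2 CPM, against 173.5 to 363.6 CPM) differed most. The transporter NRT1.1 had 83.0 to 105.6 CPM and 25.9 to 37.8 CPM, and the nitrite reductase NIR1 316.0 to 470.2 CPM and 134.4 to 182.0 CPM.

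Cold and dehydration genes were lower in replicates 1-2 in 11 of 15 cases and higher in 1, against 24.2% of all genes each way. In deposited values 7 were lower and 2 higher, against 14.8% and 14.6% of all genes (6 and 1 on the batch means). The median was -2.71 in uncorrected and -1.02 in deposited values. In uncorrected early libraries 12 of the 15 were also lower and 0 higher, against 4.77% and 3.43% of all genes (median -1.07). The COR and KIN proteins protect cells from freezing and drying. COR15B had 14.7, 22.5 and 27.9 CPM in replicates 1-2, against 475.5, 597.6 and 696.2 CPM in replicates 3-4 (-4.77 ± 0.15, adjusted p = 4.41e-10). KIN2 had 43.4 to 92.7 CPM and 1613.0 to 2695.1 CPM, and RD29A 52.3 to 91.3 CPM and 1381.1 to 2903.2 CPM. KIN1 had a median of 1.99 CPM and 45.4 CPM. For RD29A the deposited difference was -1.95 ± 0.18, since part of it had been moved by the batch shift.

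Heat shock genes were higher in 10 of 13 cases and lower in 1, against 24.2% of all genes each way. In deposited values 5 were higher and 1 lower, against 14.6% and 14.8% of all genes (0 and 1 on the batch means). HSFA2, a heat shock factor, averaged 123.9 ± 107.2 CPM in replicates 1-2 and 1.56 ± 0.977 CPM in replicates 3-4 (SD, n = 6 each), a difference of 5.95 ± 0.61. The chaperone HSP70-4 had 58.0, 258.3 and 672.8 CPM and 8.57, 9.97 and 12.8 CPM (4.32 ± 0.63). On the batch means of the deposited values the adjusted p was 0.0869 for HSFA2 and 0.185 for HSP70-4, and replicates 1 and 2 themselves lay far apart. DREB2A, a drought and heat factor, was the lower member, at 1.11 to 3.38 CPM and 10.5 to 17.5 CPM. HSP17.6II, a small heat shock protein, had 0.972 to 6.08 CPM and 0 to 0.712 CPM, and was not called on the batch means of the deposited values (adjusted p = 0.149).

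Flavonoid genes were higher in 6 of 10 cases and lower in 0, where 24.2% of all genes were called each way. CHS, the first enzyme of the pathway, had 8.36, 42.3 and 62.1 CPM in replicates 1-2 and 0.297, 0.859 and 1.79 CPM in replicates 3-4 (5.31 ± 0.49), and F3H 15.4 to 23.8 CPM and 0.956 to 2.23 CPM. The flavonol glycosyltransferases UGT78D1 (37.9 to 66.9 CPM, against 21.2 to 29.0 CPM) and UGT78D2 (23.9 to 77.6 CPM, against 5.14 to 8.98 CPM) were also higher. In the list of age and senescence genes 4 of 11 were higher and 3 lower, against 24.2% of all genes each way, and the lower share is near that. In deposited values 3 were higher and 1 lower (2 and 0 on the batch means), not far from the 29.4% of all genes called. NAP, a senescence factor, was higher at 18.0 to 50.6 CPM and 2.13 to 4.49 CPM.

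In the jasmonate list, whose genes respond to the wound in this study, the direction of the calls changed with the batch shift. In deposited values 6 of 18 were higher and 0 lower in replicates 1-2 (3 and 0 on the batch means), where 29.4% of all genes were called. In uncorrected values 1 was higher and 7 lower, against 24.2% of all genes each way and 48.5% in total. In both value sets the total called was near the share of all genes. In uncorrected early libraries 9 were lower and 0 higher, against 4.77% and 3.43% of all genes. AOS, an enzyme of jasmonate synthesis, had 615.1 to 791.3 CPM and 471.5 to 782.5 CPM at 24 h, a difference of 0.28 ± 0.13 (adjusted p = 0.0982) in uncorrected values and of 1.01 ± 0.13 in deposited values. In the early libraries AOS had 368.9 to 1709.6 CPM in replicates 1-2 and 854.0 to 4336.7 CPM in replicates 3-4. AOC1, the next enzyme, likewise had 0.10 ± 0.22 in uncorrected and 1.23 ± 0.22 in deposited values. LOX2, a lipoxygenase of the same pathway, had 1256.2 to 2347.8 CPM and 2523.1 to 4137.9 CPM (-0.81 ± 0.10 in uncorrected and 0.12 ± 0.10 in deposited values). Salicylate and systemic resistance genes were higher in 3 of 16 and lower in 5, a share close to the 48.5% of all genes called. Among them were WRKY54 at a median of 52.2 CPM and 115.4 CPM and ICS1, the main salicylate synthesis enzyme, at 24.5 to 41.8 CPM and 13.6 to 22.5 CPM. PR1, the usual salicylate marker, did not pass the test, at 2.91 to 139.4 CPM and 3.15 to 83.6 CPM. Of 9 expansins, wall-loosening proteins of growing cells, 3 were higher and 0 lower in uncorrected values, where 48.5% of all genes were called, and 3 and 1 in deposited values (1 and 1 on the batch means). EXPA11 differed by -0.72 ± 0.13 in deposited values and by 0.00 ± 0.13 (adjusted p = 0.983) in uncorrected values.

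For many genes the difference between the pairs at 24 h was not that of the early libraries. Cold and dehydration genes were lower in replicates 1-2 at both times, in 11 of 15 cases at 24 h and 12 early (uncorrected values). In uncorrected values of CTRL, Pb OS 3 h and Sl OS 3 h, 648 genes were higher (3.43%) and 902 lower (4.77%) in replicates 1-2, and with library totals for scaling 2223 and 603. Distances between pairs averaged 168.1 and within pairs 168.8 in those libraries. Of the 31 clock genes, 7 were called higher and 14 lower early, with a median size of 0.72, against 0.22 over all genes. In 26 of the 31, called or not, the sign was opposite early and at 24 h. The share of all genes with opposite signs was not counted. CCA1 had 3.29, 6.06 and 7.16 CPM in early replicates 1-2 and 10.7, 18.7 and 35.4 CPM in early replicates 3-4 (-1.80 ± 0.21, adjusted p = 0.00102). PRR9 was likewise lower in early replicates 1-2 (-1.80 ± 0.18), and TOC1 was higher, with medians of 134.7 and 88.2 CPM (0.62 ± 0.09). PRR5 (-0.36 ± 0.17, adjusted p = 0.219) and FKF1 (0.18 ± 0.10, adjusted p = 0.314) did not pass the test early, and FKF1 stood at 91.0 to 113.4 CPM and 62.8 to 110.1 CPM. The 24 h values of replicates 1-2 lay outside the range of all 12 early libraries for CCA1, TOC1, PRR5, PRR3 and FKF1. Those of replicates 3-4 were also outside it for PRR3 (93.4 to 124.1 CPM, against at most 71.6 CPM early). The same held for FKF1 (121.4 to 164.4 CPM, against at most 113.4 CPM early).

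The difference of the differences, 24 h minus early, does not depend on the batch shift. It passed the test in 6674 genes (35.3%) and was positive in 3115 (16.5%) and negative in 3559 (18.8%) at an adjusted p under 0.05, and called 26 of the 31 clock genes (13 each way). It was 7.86 ± 0.29 for CCA1, 6.09 ± 0.43 for PRR9, -4.67 ± 0.12 for TOC1, -6.53 ± 0.29 for PRR5 and -3.02 ± 0.27 for GI, and 0.27 ± 0.12 for PRR7 (adjusted p = 0.0927).

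**Figure D3:**
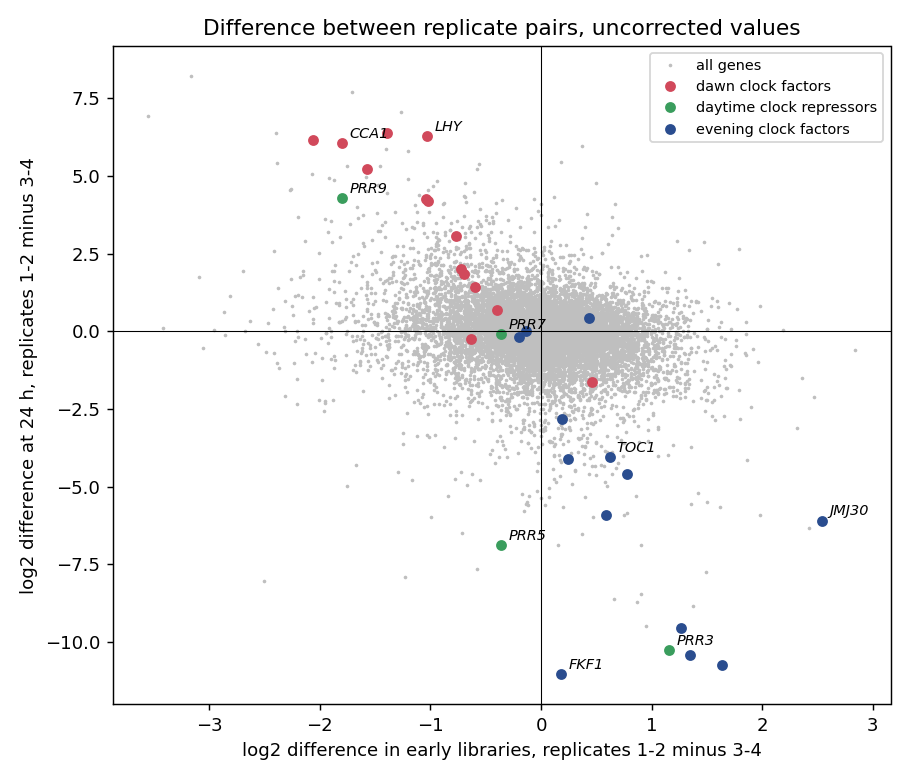
Log2 difference between replicates 1-2 and 3-4 at 24 h (vertical axis) against that in the early libraries (horizontal axis), uncorrected values, with each gene a grey point and clock genes coloured by list. Most dawn factors sit at the upper left and most evening factors at the lower right, and PRR7 lies near the centre.

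The batch shift of the deposited table carried the 24 h difference into the early libraries, and for AOS above the early difference into 24 h. The shift makes the means of both pairs equal for each gene over all libraries, with W 3 h replicate 2 placed with replicates 3-4. A gene whose mean over all libraries was lower in replicates 1-2 was thus raised in every library placed with that pair. Of the 2813 genes called with a log2 difference over 1 at 24 h in uncorrected values, 2703 (96.1%) had a smaller difference in deposited values, at a median of 0.616 times, and 15 had the other sign. FKF1 in the early libraries had a median of 102.4 CPM in replicates 1-2 and 105.3 CPM in replicates 3-4 before the shift, but 566.9 CPM and 19.0 CPM as deposited. PRR3 had early medians of 64.4 and 28.8 CPM uncorrected and 267.7 and 6.93 CPM deposited, and PRR5 100.5 and 123.4 CPM uncorrected and 322.1 and 38.5 CPM deposited. Among early libraries 1068 genes (5.65%) were higher and 957 (5.06%) lower in replicates 1-2 in deposited values. Of these 2025 genes, 1957 were called at 24 h in uncorrected values, 1282 were not called early in uncorrected values and 285 had the other sign there. All 2025 had the opposite sign at 24 h in deposited values, which the correction itself fixes in large part.

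**Figure D4:**
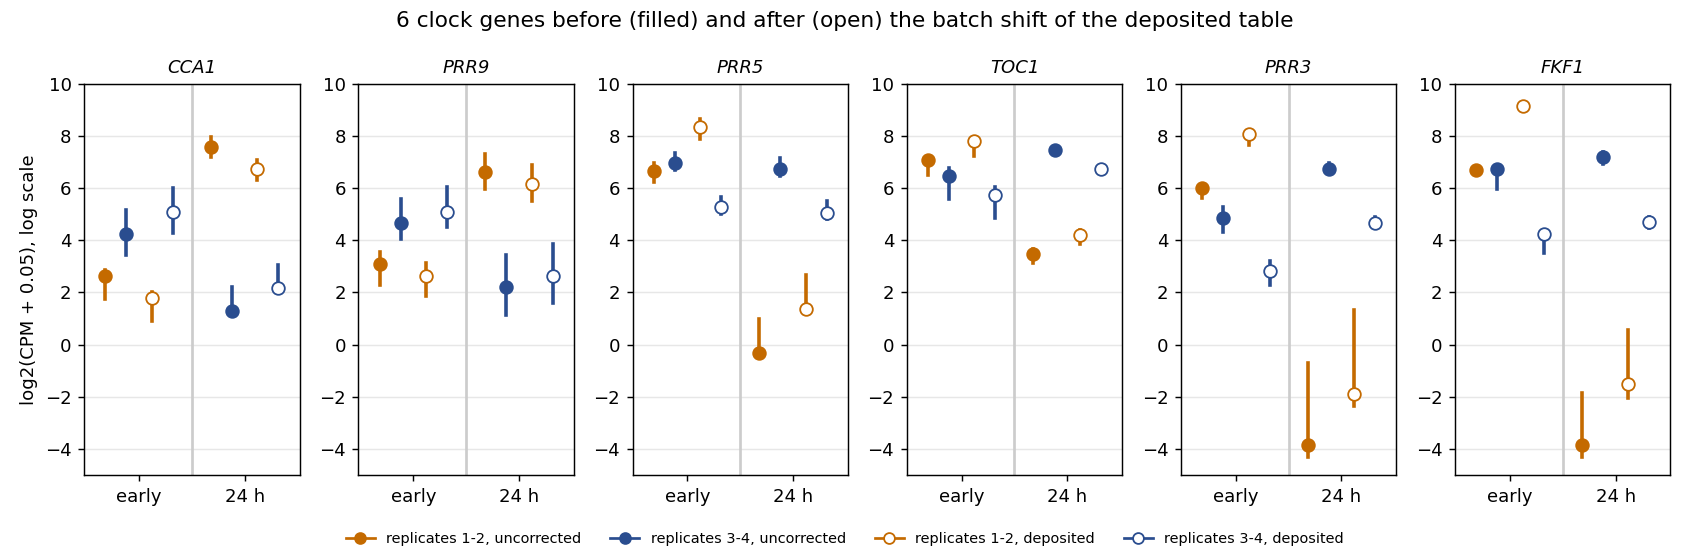
Lowest, median and highest library of 6 clock genes in replicates 1-2 and 3-4, early and at 24 h, as log2(CPM + 0.05), with filled points for uncorrected and open points for deposited values. The early medians of FKF1 lie together before the shift and apart after it, at 566.9 and 19.0 CPM, and the 24 h gap of every gene shown is narrower after it.

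Within the pairs, heat shock genes and a few clock genes differed between the libraries of replicate 1 and those of replicate 2. Each side is 1 plant batch with 3 treatments, so the test compares 1 batch with 1 batch and its p-values measure the spread of libraries within a batch. Between replicate 1 and replicate 2, 324 genes (1.71%) were called, with 2348 at an unadjusted p under 0.05, against 0 (0.0%) between replicates 3 and 4 in the same limma fit, where 3267 genes had an unadjusted p under 0.05 and the smallest adjusted p was 0.087. The difference between these counts was not tested. Of the clock genes, RVE3, LNK1, GI and ELF4 were called between replicates 1 and 2. RVE3 had 6.8, 5.06 and 7.62 CPM in W, Pb OS and Sl OS of replicate 1 and 24.7, 20.5 and 22.0 CPM in replicate 2. GI was lower in replicate 1 as well (-1.02, adjusted p = 0.00888), with 41.1, 50.1 and 70.5 CPM in replicate 2. For both genes the 3 libraries of replicate 1 lay below the 3 of replicate 2, and all 6 lay on 1 side of replicates 3-4. Of 13 heat shock genes, 6 were lower in replicate 1 and 0 higher. HSP101, a disaggregase, had 28.6, 29.9 and 37.5 CPM in replicate 1 and 224.4, 345.6 and 282.6 CPM in replicate 2 (-3.14, adjusted p = 8.92e-05), against 6.1 to 8.02 CPM in replicates 3-4. PHYB, the red-light receptor, had 98.0, 98.0 and 102.2 CPM in replicate 1 and 199.6, 189.5 and 176.6 CPM in replicate 2, against 53.3 to 67.5 CPM in replicates 3-4 (in deposited values its difference between the pairs was not called on the batch means, adjusted p = 0.191). HSP101 and PHYB were chosen after their values were seen.

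**Figure D5:**
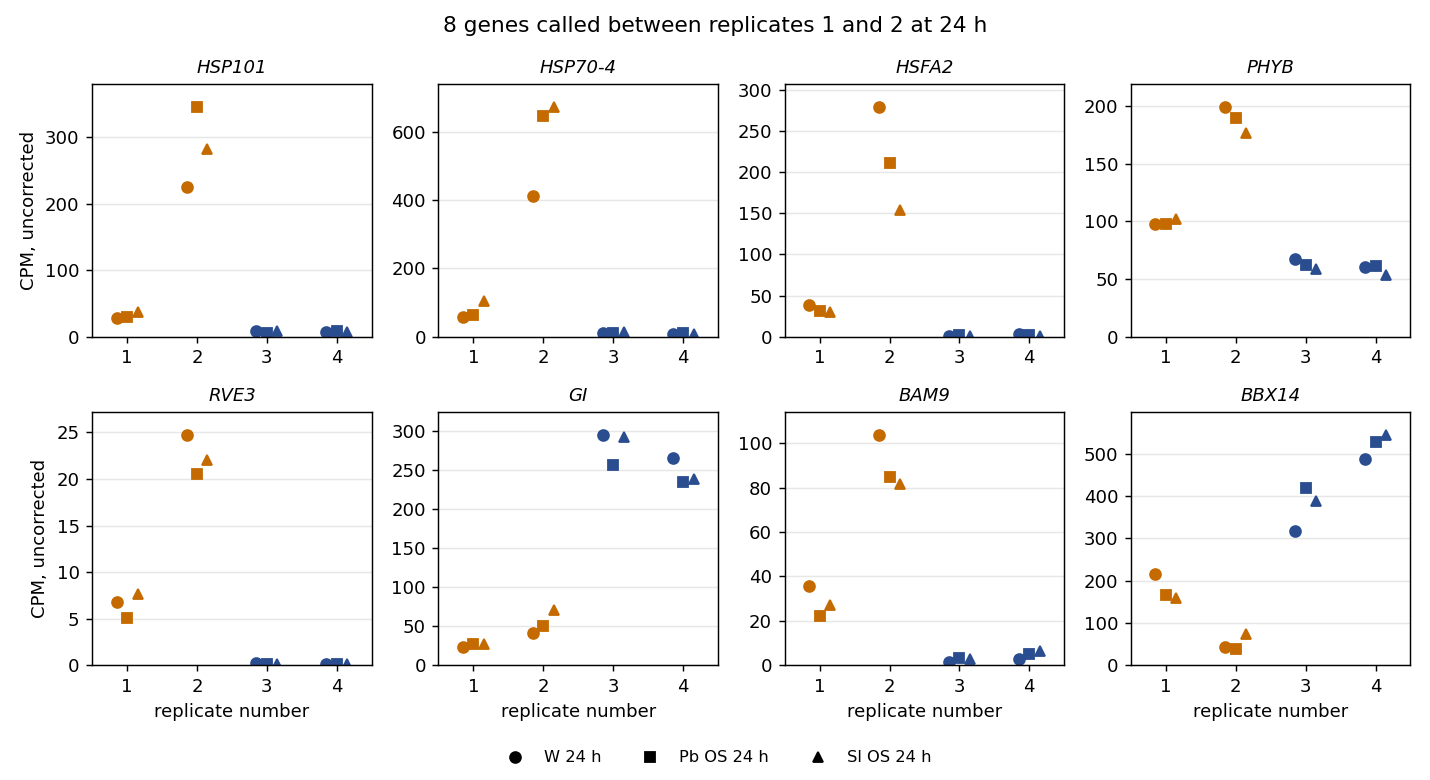
Uncorrected CPM of 8 genes called between replicates 1 and 2, by replicate number at 24 h, each point 1 library and its shape the treatment. In each panel the 3 treatments of 1 number sit together, as for HSP101 at 28.6 to 37.5 CPM in replicate 1, 224.4 to 345.6 CPM in replicate 2 and 6.1 to 8.02 CPM in replicates 3-4.

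No gene was called for a pair difference that varied among W, Pb OS and Sl OS. The F test of pair by treatment called 0 genes at an adjusted p under 0.05 (0.0%, limma), with 1059 genes at an unadjusted p under 0.05 and a smallest adjusted p of 0.257. CCA1 had 187.5 and 246.9 CPM in W replicates 1-2 against 4.54 and 2.35 CPM in W replicates 3-4, 144.3 and 196.9 CPM against 2.14 and 2.46 CPM with Pb OS, and 158.9 and 202.7 CPM against 3.68 and 2.11 CPM with Sl OS. Each treatment group at 24 h thus held libraries from both sides of this gap.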

How the data were processed

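Per the submitters' processing notes, the authors trimmed reads with cutadapt 2.5, aligned them to TAIR10 with STAR 2.5.3a and counted reads per gene with HTSeq 0.9.1. The deposited values are log2 CPM, scaled by TMM with a prior count of 1, batch-corrected by the authors. Their methods name 4 batches, while the values hold a per-gene shift between replicates 1-2 and 3-4 only. Whole reads were recovered for all 18899 genes (tolerance 0.02 reads, largest distance 0.0039), and 771 genes had a shift over 1 on the log2 scale. Depth was 22478292 to 31335753 reads per library, and counting intervals cover counting error only. A further deposited table of the authors' own comparisons (log2 fold changes and adjusted p-values) was not used. Differences were fitted with limma 3.58.1 in R 4.3.3 (eBayes with trend, treatment as a block, Benjamini-Hochberg over 18899 genes) after the code was tested on simulated data, and other steps used Python 3.11.15, numpy 2.4.6 and pandas 2.3.3. The 3 libraries of W at 3 h carry the numbers 1, 2 and 3 in the labels but the values place the library labelled 2 with replicates 3-4 in the correction. The samples, gene lists and rules were chosen with earlier results of these data known. Named genes were all clock genes, the 10 highest and 10 lowest genes called in deposited values without overlap and with a mean of at least 1 CPM, and up to 4 genes of each other list by adjusted p. CDF1, CAT3, BBX14, ELIP1, ELIP2, LHCB1.3, PORB, BAM1, BAM9, NIA1, LOX2, PR1, PP2AA3, PHYB and HSP101 fall outside that rule and were chosen after their values were seen. Promoters were read from the RefSeq TAIR10.1 genome, and 1 of them is not reported here. Replicate numbers name plant batches, as the study's methods state. The correlation of libraries with the same number was 0.155 at 24 h and -0.146 early. Alternatives covered the trend, a minimum of 1 CPM, log2(CPM + 5), voom on recovered reads, the replicate block, the treatment term, the libraries in the fit and the scaling, the last chosen after seeing the data.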

Additional observations from a re-analysis of the deposited data

Results flagged for a closer look

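Among 86 groups of 6 libraries (43 genes in each pair at 24 h), 4 had 1 library whose gap to the next passed the 95% critical value of Dixon's ratio, as chance does in about 1 in 20 groups. RVE1 had 79.8 CPM in Sl OS replicate 2, against 14.9 to 25.9 CPM in the other 5 libraries of replicates 1-2. PRR5 had 1.95 CPM in the same library, against 0.698 to 0.873 CPM in the other 5. ZTL had 68.4 CPM in W replicate 1, against 55.9 to 58.6 CPM in the other 5. AT3G09450 had 0.0929 CPM (3 reads) in Sl OS replicate 3 and 0 in the other 5 libraries of replicates 3-4.

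The difference between replicates 1-2 and replicates 3-4 was not the same at 24 h and in the early libraries for 6674 genes (35.3% of those tested, limma interaction term).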

How the results depend on the processing

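Voom on recovered reads, which carry no batch shift, called 4625 genes higher and 4509 lower at 24 h (1284 and 1510 beyond a log2 difference of 1). Uncorrected values gave 4578 and 4583 (1248 and 1565). For the deposited values the fit over all 27 libraries gave 1496 and 1493, and log2(CPM + 5) gave 311 and 212 beyond 1. The replicate block by averaging gave 1089 higher and 1079 lower, and 2808 and 2742 in uncorrected values. In uncorrected values log2(CPM + 5) left 610 and 586 beyond 1. In the early libraries the random replicate block gave 1717 and 1515 genes in deposited and 1472 and 1671 in uncorrected values, voom gave 647 higher, and library totals gave 2223 higher in uncorrected values. Among named genes the block by averaging also ended the deposited calls of LOX3, JAZ9, CER5, FDH, RBCS1A, CA1, GLDP1, EXPA5, EXPA15, SPL3 and SOC1, and of the clock genes only that of RVE5. EXPA11 turned to 0.01 with voom and 0.00 in uncorrected values, and SOC1 (0.26 as deposited) to -0.28 in both. Both settings leave out the batch shift, so they are not separate checks.

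Leaving out 1 library at a time gave 2322 to 2686 higher and 2269 to 2820 lower (648 to 741 and 670 to 737 beyond 1) in deposited values, 4154 to 4495 and 4077 to 4542 (1209 to 1310 and 1499 to 1582) in uncorrected values, and 2837 to 3231 and 3237 to 3830 for the difference of differences. Early, it gave 770 to 1210 and 702 to 1102 in deposited values. In uncorrected early values it gave 244 to 890 higher and 549 to 1131 lower. The higher count was 244 without Pb OS 3 h replicate 1, 285 without Sl OS 3 h replicate 1, 376 without CTRL replicate 4, 379 without Sl OS 3 h replicate 3, 384 without Sl OS 3 h replicate 4, 390 without Pb OS 3 h replicate 3, 398 without CTRL replicate 3 and 421 without CTRL replicate 1, and the lower count was 549 without Pb OS 3 h replicate 1. The causes were not tested. With 4 plant batches, the 24 h comparison rests on 2 batches against 2, and the hour of collection cannot be told apart from the batch. Genes at or near 0 in a pair have fitted differences set by the prior count.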

Other observations

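Further genes of the lists were described only by their counts above. In chlorophyll synthesis CRD1, a cyclase subunit, had 3029.3 to 3694.2 CPM in replicates 1-2 and 963.2 to 1257.5 CPM in replicates 3-4 (1.55), and CAO, which makes chlorophyll b, 401.2 to 601.3 CPM and 140.8 to 163.7 CPM (1.72). Both lay in the same direction as HEMA1. The antenna gene LHCB2.3 had 1276.9 to 2321.5 CPM and 132.9 to 516.5 CPM. GLU1, a glutamate synthase of nitrogen assimilation, had 2134.2 to 2888.4 CPM and 1102.1 to 1281.2 CPM. SAG29, a sugar transporter of the SWEET family known from senescence, had 0.354 to 2.7 CPM and 0 to 0.248 CPM, and SPL3, an age-related flowering factor, was lower at 3.54 to 7.28 CPM and 6.1 to 14.0 CPM, with a difference of -0.74 in deposited values that was not called on the batch means (adjusted p = 0.0629). WRKY18, a defence regulator, was lower at 17.7 to 34.3 CPM and 32.2 to 81.9 CPM.

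Within replicates 3-4, W replicate 3 and Sl OS replicate 3 stood apart from the other 4 libraries in several genes, a pattern noticed after the values were seen and not tested. LHCB1.1 had 1899.4 and 2007.8 CPM in these libraries, against 3576.1 to 4156.7 CPM in the other 4. RD29A had 2646.9 and 2903.2 CPM, against 1381.1 to 1668.1 CPM. CHLH, a subunit of magnesium chelatase, had 969.7 and 804.8 CPM, against 1490.0 to 1633.7 CPM. PRR9 was at 10.7 and 8.24 CPM there, and CCA1 at 4.54 and 3.68 CPM, the highest values of the pair for both genes.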
